A study of Mus musculus with 7 samples.

Results

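Apoptosis through mitochondria is set by a small group of proteins, and 9 of their genes, Bax, Bak1, Bad, Bcl2, Bcl2l1, Bcl2l11, Casp9, Trp53 and Aifm1, were followed in fetal mouse testes that lacked functional GLIS3, a zinc finger transcription factor. The genes were taken by symbol from the deposited table of 24739 RefSeq genes, in which each of the 9 had 1 row. Expression was given as FPKM, fragments per kilobase of transcript scaled to the mapped fragments of each library, so that levels can be compared between genes. The libraries came from whole testes at embryonic day 14.5, with 1 pair of testes per library. The WT group held 3 libraries from wild-type embryos, and the Mutant group 4 libraries from embryos homozygous for Glis3zf5 (Glis3zf5/zf5), all on a C57BL/6 background. Glis3zf5 is a global allele in which a deletion around exon 4 disrupts DNA binding, so every cell type of the testis and of the rest of the embryo carried it.

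In the mitochondrial pathway, BAX and BAK1 form pores in the outer mitochondrial membrane, BCL2 and BCL-XL (from Bcl2l1) hold them in check, and BH3-only proteins such as BAD and BIM (from Bcl2l11) relieve that check. Cytochrome c that leaks through the pores joins APAF1 to activate caspase 9, and AIF, the product of Aifm1, can move from mitochondria to the nucleus. The tumour suppressor p53 (from Trp53) switches on several pro-apoptotic genes, Bax among them, and in the fetal testis the pathway is known for removing surplus or damaged germ cells. Much of this control acts on the proteins themselves, through binding, phosphorylation and cleavage, which RNA levels do not show.

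None of the 9 genes changed between the groups at an adjusted p of 0.05 (limma on log2 values, Benjamini-Hochberg over 13988 genes), and in each of them the WT and Mutant values overlapped, where 14.9% of all tested genes had groups that did not overlap. The background was of the same kind, since 0.00715% of all tested genes (1 of 13988) passed. The largest difference in level among the members was 1.20-fold (95% interval 1.01 to 1.43), for Bad. All 9 intervals lay inside a log2 difference of 1 either way, their outer bounds were -0.70 and 0.52, and 6 of them lay inside 0.5.

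The labels were checked on Glis3 first. Glis3 stood at 7.63, 6.89 and 2.91 FPKM in WT replicates 1 to 3 and at 3.86, 3.26, 2.90 and 2.66 FPKM in the Mutant libraries. The FPKM covers the exons that the allele keeps, and the library labelled WT replicate 3 lay inside the Mutant range. Its summed FPKM of 12 germ cell markers, 607.4, also lay inside the Mutant range of 492.4 to 679.3, against 1452 and 1168 in WT replicates 1 and 2. The counts of members and pathway genes called on FPKM are therefore given with and without this library. Without it 722 of 14019 genes, 5.15%, passed the threshold, and Glis3 differed by -1.09 on the log2 scale (adjusted p = 0.00992, limma). That fit keeps only WT replicates 1 and 2. Glis3 and the germ cell markers singled out the library because it lay among the Mutant values. P values and calls without it are therefore no independent check, for these genes or for the members and pathway genes below.

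All testis cell lists were present, and none of their genes passed the threshold with 7 libraries. All 12 germ cell markers were lower in Mutant libraries, with a median log2 difference of -0.94. Without WT replicate 3 that median was -1.46, and 9 of the 12 germ cell and 2 of the 7 Sertoli cell markers passed (limma). The germ cell list includes Ddx4, Mael, Tdrd1, Nanos2 and Nanos3, which the study reported as reduced in the mutant. It lacks Boll, Hormad1 and Lefty2, which the study reported as unchanged. The study reported germ cell numbers at this age as not different, though its mean count was lower in mutant testes. Its discussion places the first detected loss of germ cells at this age. Whether fewer germ cells contributed to the lower markers was not tested. Sertoli cell sums were 1031 to 1294 FPKM in WT and 1250 to 1430 FPKM in Mutant libraries with 7 of 7 genes higher, and fetal Leydig cell sums 1596 to 2658 and 2498 to 3073 FPKM with 5 of 5 genes higher. Macrophage sums were 20.5 to 25.4 and 26.0 to 34.2 FPKM with 5 of 5 genes higher. Interstitial sums were 288.1 to 311.9 and 288.0 to 373.1 FPKM with 4 of 4 genes higher. Endothelial sums were 71.4 to 87.1 and 73.4 to 81.7 FPKM with 2 of 5 genes higher. Interstitial and endothelial sums overlapped between the groups, as did Sertoli and fetal Leydig cell sums. Among cells from outside the testis, red blood cell sums were 2544 to 4297 and 1055 to 3691 FPKM, skeletal muscle sums 34.9 to 46.3 and 41.0 to 81.5 FPKM, mast cell sums 1.17 to 2.82 and 2.28 to 15.4 FPKM (Mcpt4 at 0 in some libraries), and mesonephros sums 0.745 to 1.10 and 0.649 to 1.27 FPKM (Pax2 at 0 in some). In whole testes, fewer cells of a type and less RNA per cell cannot be told apart, and the part of cell makeup in the values below was not tested.

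By level the 9 genes formed 3 tiers. Bax had the highest mean over the 7 libraries (55.0 FPKM, range 44.8 to 62.5), followed by Aifm1 (45.1, 41.9 to 51.0) and Bad (40.8, 31.2 to 46.3). Bcl2l1 (14.5 FPKM, 11.9 to 16.7), Casp9 (12.4, 8.25 to 17.8) and Trp53 (7.78, 6.04 to 10.5) came next, and Bcl2l11 (5.19, 4.51 to 5.88), Bcl2 (4.80, 3.77 to 5.64) and Bak1 (4.06, 3.45 to 4.49) were lowest. Ranges of neighbours in this order overlapped except between Bad and Bcl2l1 and between Trp53 and Bcl2l11. Bax lay above 88.4% and Bak1 above 28.6% of the tested genes in mean FPKM. The plot of FPKM by library shows these tiers and the overlap of the groups in every gene.

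**Figure D1:**
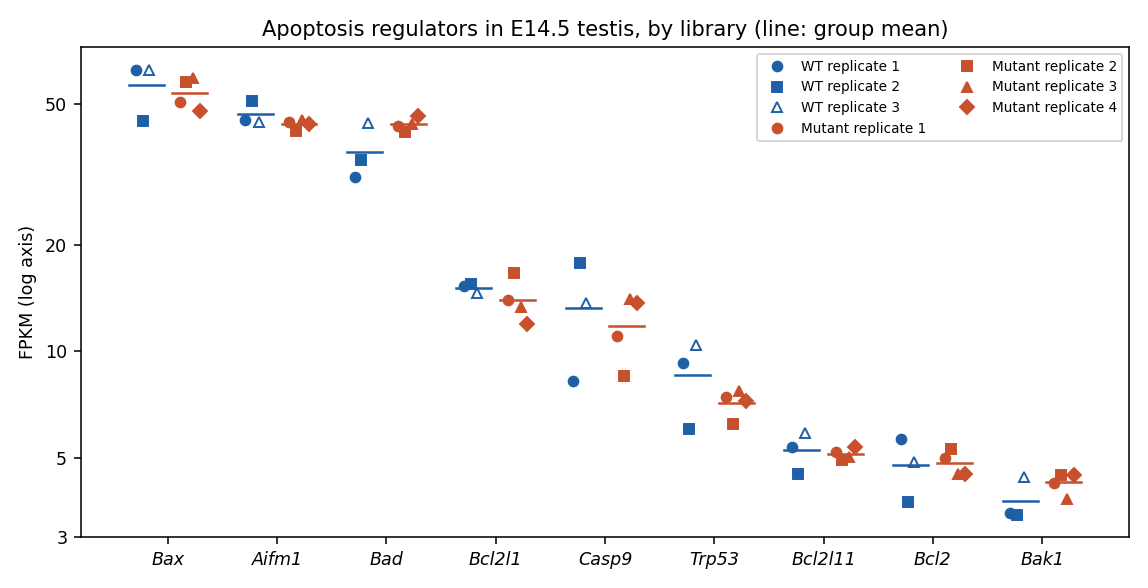
FPKM of the 9 apoptosis regulators in each library (vertical axis). Points are the 3 WT and 4 Mutant libraries, and horizontal lines are group means. WT and Mutant points overlap in all 9 genes, and the Bad value of WT replicate 3 (44.2 FPKM) lies among the Mutant values.

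To show the DNA upstream of the genes compared most closely below, the 250 bases before the annotated start are printed for Bax and Bcl2, a pore former and a survival gene whose ratio was tested, and for Bad, the member with the largest difference. The windows are from RefSeq on GRCm38.p6 and lie at chr7:45466899-45467148 (minus strand), chr1:106714291-106714540 (minus strand) and chr19:6941611-6941860 (plus strand), with the Bad window taken at the start that matches its row in the deposited table, and capitals mark the GC box GGGCGG on either strand.
Bax: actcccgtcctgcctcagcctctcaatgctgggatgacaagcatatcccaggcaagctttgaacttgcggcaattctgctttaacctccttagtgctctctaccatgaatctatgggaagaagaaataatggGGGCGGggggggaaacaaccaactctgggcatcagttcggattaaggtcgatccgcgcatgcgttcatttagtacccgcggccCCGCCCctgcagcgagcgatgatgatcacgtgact
Bcl2: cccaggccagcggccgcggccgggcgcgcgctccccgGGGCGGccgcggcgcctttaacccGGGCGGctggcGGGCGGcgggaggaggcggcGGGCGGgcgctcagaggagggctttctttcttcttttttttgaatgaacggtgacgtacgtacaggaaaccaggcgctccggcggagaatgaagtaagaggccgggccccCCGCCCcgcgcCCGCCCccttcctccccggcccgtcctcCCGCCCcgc
Bad: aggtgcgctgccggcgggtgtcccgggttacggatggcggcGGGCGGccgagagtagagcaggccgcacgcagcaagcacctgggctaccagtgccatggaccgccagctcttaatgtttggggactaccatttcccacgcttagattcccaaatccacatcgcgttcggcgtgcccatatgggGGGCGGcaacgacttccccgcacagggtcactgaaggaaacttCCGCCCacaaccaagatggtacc
The Bcl2 window held 7 GC boxes with a GC content of 74.8%, the Bad window 3 with 62.8% and the Bax window 2 with 54.0%, against a median GC content of 52.4% over 32841 upstream windows of all genes. All 9 members matched a window, 8 of the 9 windows were above that median, and 5 held GGGCGG, which 32.7% of all windows do. CCAAT stood in 3 of the 9 windows (33.9% of all). TATAAA stood in 1 (12.4% of all), at 248 bases before the start of Trp53 and on the opposite strand. TGGGGGGT, the core letters of the element that GLIS proteins bind, was found on either strand in 1 of the 9, at 122 bases before the start of Bcl2l11, and in 1.36% of all windows. A p53 half-site was found in 2 windows, Bax and Trp53, at 201 and 75 bases before the start, and in 7.13% of all. A full p53 site was found in none of the 9 and in 0.0639% of all. These matches describe letters in the windows only.

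Among the pore formers, Bax (chromosome 7, 45461695 to 45466898, minus strand, mm10) stood at 62.4, 44.8 and 62.5 FPKM in WT replicates 1 to 3 and at 50.7, 57.7, 59.1 and 47.7 FPKM in Mutant replicates 1 to 4. The Mutant values all lay within the WT range, which was set by replicate 2 at its low end. The log2 difference was -0.06 (SE 0.13, 95% interval -0.36 to 0.24, adjusted p = 0.848, limma), and it ran from -0.22 without WT replicate 2 to 0.02 without WT replicate 3. Bak1 (chromosome 17, 27019812 to 27028626, minus strand) stood at 3.5, 3.45 and 4.42 FPKM in WT and at 4.26, 4.49, 3.84 and 4.47 FPKM in Mutant libraries. WT replicate 3 was again among the Mutant values, and the other two WT values were below all 4 of them. The log2 difference of 0.16 (SE 0.11, interval -0.09 to 0.40, adjusted p = 0.485, limma) became 0.26 (interval 0.02 to 0.49, adjusted p = 0.172) without that library. Bak1 shares 614 of its 2407 exonic bases with Ggnbp1 on the opposite strand, and since the libraries carried no strand, reads there cannot be assigned between them. Ggnbp1 itself stood at 2.87 to 4.6 FPKM in WT and 2.38 to 3.47 FPKM in Mutant libraries.

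The survival genes gave no difference beyond the spread of the replicates. Bcl2 (chromosome 1, 106538178 to 106714290, minus strand) stood at 5.64, 3.77 and 4.88 FPKM in WT and at 4.99, 5.31, 4.50 and 4.50 FPKM in Mutant libraries. The 4 Mutant values fell inside the WT range, with a log2 difference of 0.03 (SE 0.13, interval -0.27 to 0.33, adjusted p = 0.929, limma) that ran from -0.11 to 0.15 when a library was left out. Bcl2l1 (chromosome 2, 152758732 to 152831728, minus strand), whose main product is BCL-XL, was even in WT libraries at 15.3, 15.5 and 14.6 FPKM. Its Mutant values of 14, 16.7, 13.4 and 11.9 FPKM lay on both sides of them. The log2 difference was -0.12 (SE 0.11, interval -0.36 to 0.12, adjusted p = 0.590, limma), and -0.21 to -0.05 with a library left out. Gene-level FPKM does not separate BCL-XL from the shorter, pro-apoptotic BCL-XS made by splicing of the same gene.

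The balance of pore former to survival gene was tested as a single value per library. Bax FPKM was 11.1, 11.9 and 12.8 times Bcl2 FPKM in WT and 10.2, 10.9, 13.1 and 10.6 times in Mutant libraries. On the log2 scale the mean ratio was 3.57 ± 0.11 (SD) in the 3 WT and 3.48 ± 0.16 in the 4 Mutant libraries, a difference of -0.10 (two-sided exact permutation test, p = 0.429, where 35 splits allow no p under 0.0286). Bax FPKM was 4.07, 2.89 and 4.29 times Bcl2l1 FPKM in WT and 3.62, 3.46, 4.42 and 4.0 times in Mutant libraries. Here the log2 means were 1.88 ± 0.31 and 1.95 ± 0.16, a difference of 0.06 (exact permutation test, p = 0.800) that turned to -0.11 without WT replicate 2, the library with the lowest Bax value, and to -0.0014 without Mutant replicate 3. In both ratios the highest library of all was Mutant replicate 3, and the plot of the ratios shows the groups mixed.

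**Figure D2:**
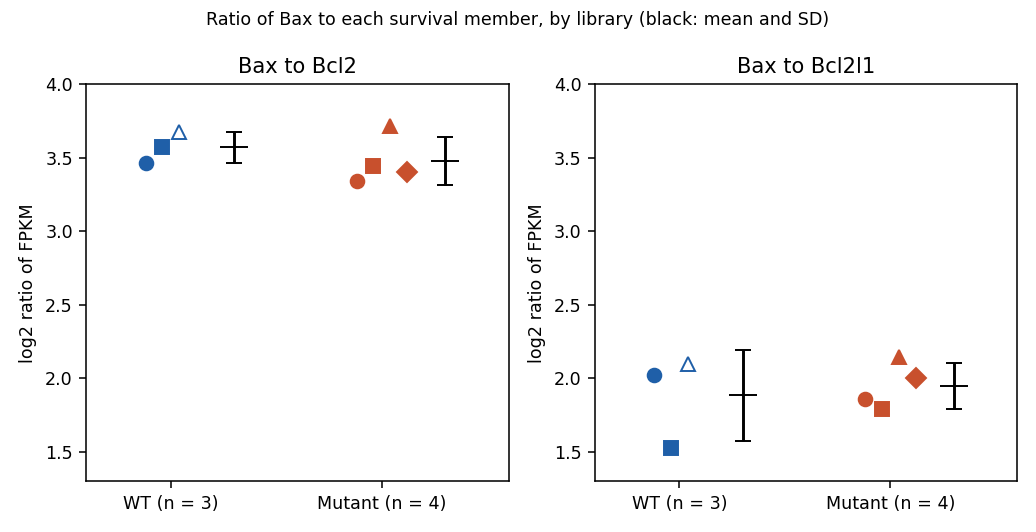
Log2 of the ratio of Bax FPKM to Bcl2 FPKM and to Bcl2l1 FPKM in each library (vertical axis). Points are the 3 WT and 4 Mutant libraries, lines are group means with SD. The Bax to Bcl2 means are 3.57 in WT and 3.48 in Mutant libraries, less than 1 SD apart.

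Of the BH3-only genes, Bad (chromosome 19, 6941861 to 6951905, plus strand) was the member with the largest difference in level. It stood at 31.2, 34.7 and 44.2 FPKM in WT and at 43.3, 41.8, 43.8 and 46.3 FPKM in Mutant libraries. The first pair of WT values lay below all Mutant values, and WT replicate 3 lay among them, as it did for Glis3 and for the germ cell marker sum. With all 7 libraries the log2 difference was 0.27 (SE 0.11, interval 0.01 to 0.52) with an unadjusted p of 0.0408 and an adjusted p of 0.276 (limma), so that it did not pass. Unadjusted p values under 0.05 were given by 17% of all tested genes, against 1 of 9 members. Without WT replicate 3, Bad rose by 0.41 (SE 0.07, interval 0.24 to 0.58, adjusted p = 0.026, limma), and it was then the 1 member of 9 called, where 1.16% of all genes were called higher and 3.99% lower. Unadjusted p values under 0.05 were then given by 2 members, Bad and Bak1, and by 23.6% of all genes. Without WT replicate 1, the lowest library, the difference was 0.16 (adjusted p = 0.573). Over all settings tried the adjusted p for Bad ran from 0.026 to 0.573. Bad shares 524 of its 2558 exonic bases with Gpr137 on the opposite strand, which stood at 9.73 to 10.8 FPKM in WT and 10.5 to 11.7 FPKM in Mutant libraries.

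Bcl2l11 (chromosome 2, 128126038 to 128162547, plus strand), which encodes the BH3-only protein BIM, stood at 5.37, 4.51 and 5.88 FPKM in WT and at 5.20, 4.94, 5.04 and 5.37 FPKM in Mutant libraries. All Mutant values were within the WT range. The log2 difference of -0.02 (SE 0.10, interval -0.25 to 0.20, adjusted p = 0.930, limma) turned to 0.06 without WT replicate 3 and was -0.12 without WT replicate 2.

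Casp9 (chromosome 4, 141793612 to 141815978, plus strand), the initiator caspase of the apoptosome, varied most. Its values were 8.25, 17.8 and 13.7 FPKM in WT and 11.1, 8.50, 14.1 and 13.7 FPKM in Mutant libraries. Both groups held a library under 9 FPKM, and the WT values alone spanned more than a doubling. The SD within groups was 0.42 on the log2 scale, larger than in 95% of tested genes, and the difference of -0.12 (SE 0.26, interval -0.70 to 0.46, adjusted p = 0.843, limma) was the least precise of the 9. It ran from -0.41 without WT replicate 1 to 0.12 without WT replicate 2, and was -0.06 without WT replicate 3. A short stretch of 94 of its 5197 exonic bases overlaps the pancreatic protease genes Cela2a and Ctrc on the opposite strand. Aifm1 (chromosome X, 48474944 to 48513563, minus strand) was the steadiest member at 45.2, 51.0 and 44.4 FPKM in WT and 44.4, 41.9, 44.9 and 43.8 FPKM in Mutant libraries. Its SD within groups was 0.08, with 14.6% of tested genes below it and a median of 0.13 over all. The difference was -0.10 (SE 0.07, interval -0.25 to 0.06, adjusted p = 0.489, limma), and it was -0.03 without WT replicate 2, the 1 library above 46 FPKM.

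Trp53 (chromosome 11, 69580359 to 69591873, plus strand) stood at 9.31, 6.04 and 10.5 FPKM in WT and at 7.41, 6.22, 7.75 and 7.24 FPKM in Mutant libraries. The WT group held both the highest and the lowest value of the 7. The log2 difference was -0.22 (SE 0.17, interval -0.61 to 0.17, adjusted p = 0.536, limma) and ran from -0.07 without WT replicate 3, the highest library, to -0.44 (adjusted p = 0.149) without WT replicate 2, the lowest.

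Single libraries held the extremes of several members. WT replicate 2 was the lowest of the 7 libraries for 5 members (Bax, Bak1, Bcl2, Bcl2l11 and Trp53) and the highest for Casp9 and Aifm1. WT replicate 3 was the highest for 3 (Bax, Bcl2l11 and Trp53) and the lowest for none, and WT replicate 1 was the lowest for Bad and Casp9 and the highest for Bcl2. The SD was smaller in Mutant than in WT libraries for 8 of the 9, Bcl2l1 being the exception. The share of all tested genes with a smaller Mutant SD was not determined, so this count cannot be read as particular to the members. The plot of log2 differences with and without WT replicate 3 shows how far this library moved each gene. Without it, the groups were apart for 3 members, Bak1 and Bad higher and Aifm1 lower in Mutant libraries, against 32.6% of all tested genes in either direction, 15.6% higher and 17.1% lower.

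**Figure D3:**
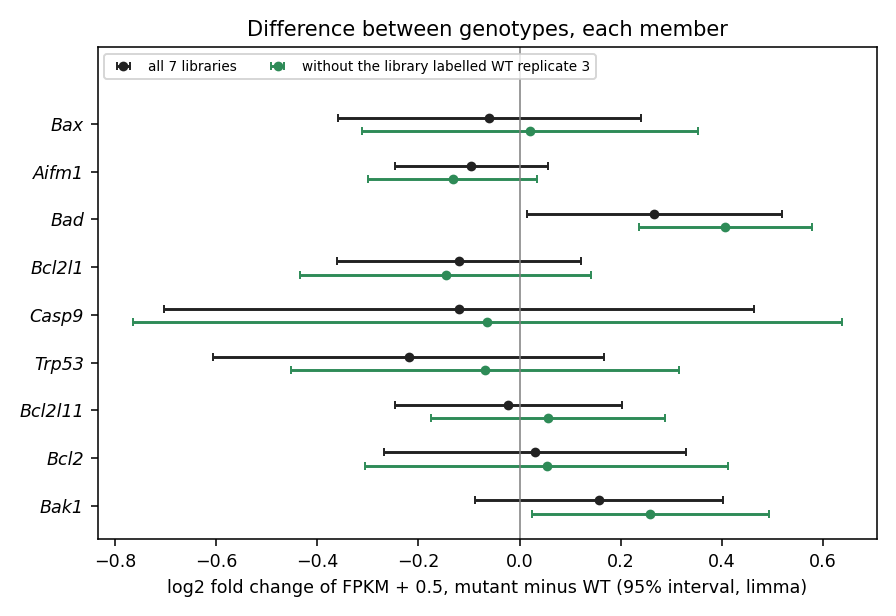
Log2 difference of Mutant minus WT on the log2(FPKM + 0.5) scale (horizontal axis) for the 9 members, from limma. Points are estimates and bars 95% intervals, with all 7 libraries and without WT replicate 3. With 7 libraries the Bad interval runs from 0.01 to 0.52, and without that library from 0.24 to 0.58.

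A second readout came from reads in repeats that lie inside introns. The libraries were made from rRNA-depleted total RNA without poly-A selection, and the deposited counts over LINE, SINE and LTR copies were summed over copies lying wholly in 1 gene and touching no exon. Of the 9 members, 8 had such copies, from 10 in Bax to 97 in Bcl2, and Bak1 had none. No member passed the threshold by edgeR or by DESeq2, none had non-overlapping groups (4.78% of genes did so lower and 5.15% higher in Mutant libraries), and none had an unadjusted p under 0.05 by either tool, against 0.199% of 11558 genes with an adjusted and 12% with an unadjusted p under 0.05 by edgeR.

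Intronic levels of the BCL2 family followed the spread between libraries. In CPM, a gene's intronic repeat reads scaled by edgeR to a fixed total per library, Bcl2 stood at 191.3, 150.4 and 171.7 in WT and at 198.1, 175.4, 151.2 and 175.2 in Mutant libraries. WT replicate 2 was the lowest for intronic Bcl2, as it was for Bcl2 FPKM, and the log2 difference of 0.03 (DESeq2 interval -0.22 to 0.28) was the most precise of the 8. Bcl2l1 stood at 65.3, 71.1 and 51.3 CPM in WT and at 63.3, 59.4, 56.8 and 70.5 CPM in Mutant libraries, a difference of 0.00 (interval -0.34 to 0.35). Bcl2l11 stood at 39.2, 26.8 and 33.6 CPM in WT and at 30.8, 35.4, 32.4 and 31.5 CPM in Mutant libraries, a difference of -0.04 (interval -0.48 to 0.40), again with WT replicate 2 lowest. Intronic Bax was at 12.3 to 22.2 CPM over the 7 libraries, from 23 to 56 reads each, with a log2 difference of -0.20 (interval -0.81 to 0.41) that was -0.39 without WT replicate 3 and -0.05 without WT replicate 1.

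Intronic Bad ran the other way from its FPKM. It stood at 30.9, 33.4 and 28.0 CPM in WT and at 27.1, 21.7, 31.3 and 28.8 CPM in Mutant libraries. The log2 difference was -0.17 (DESeq2 interval -0.64 to 0.29, adjusted p = 0.776 by edgeR), and it ran from -0.24 without Mutant replicate 3 to -0.08 without Mutant replicate 2. These values rest on 38 to 78 reads per library, and the groups overlapped.

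For the remaining members, intronic Casp9 stood at 18.6 to 27.1 CPM in WT and 21.4 to 30.3 CPM in Mutant libraries, a log2 difference of 0.10 (interval -0.42 to 0.61) that ran from -0.07 without WT replicate 1 to 0.20 without WT replicate 3. Its lowest library was WT replicate 1, as in FPKM. Trp53 ranged from 27.3 to 35.6 CPM in WT and from 19.4 to 44.9 CPM in Mutant libraries, a difference of 0.01 (interval -0.50 to 0.52). Aifm1 ranged from 64.1 to 70.5 CPM and from 51.3 to 70.3 CPM, a difference of -0.09 (interval -0.43 to 0.24). Adjusted p values of the 8 members ran from 0.776 to 0.997 (edgeR), and the plot of intronic CPM shows overlapping groups in all 8.

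**Figure D4:**
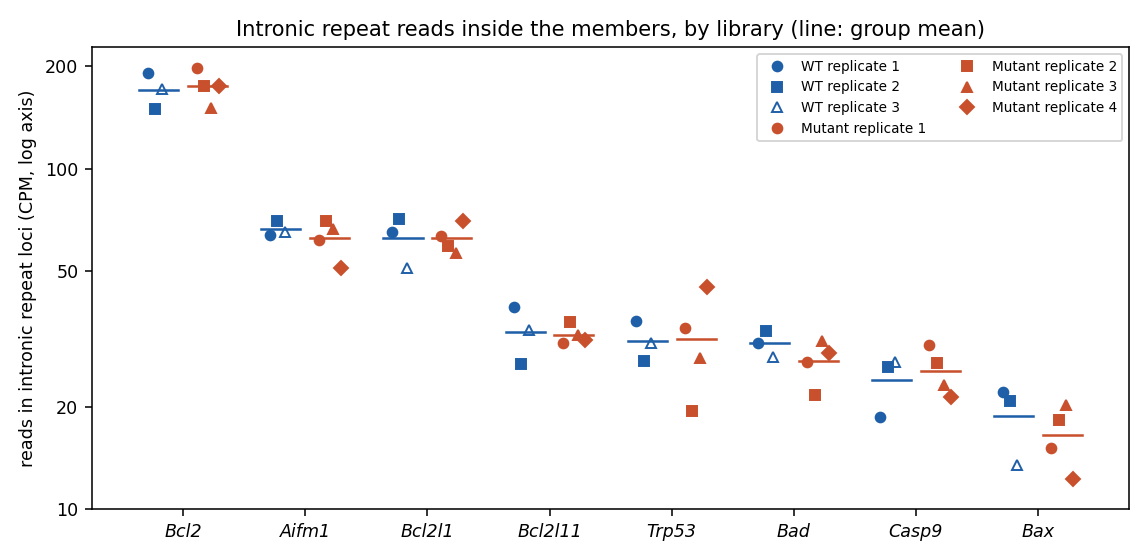
Intronic repeat reads of 8 members in CPM (vertical axis). Points are the 3 WT and 4 Mutant libraries, and lines are group means. WT and Mutant points overlap in every gene, including Bad, whose means are 30.7 CPM in WT and 27.2 CPM in Mutant libraries.

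The members were set beside the other genes of the pathway. Of 79 listed genes, members included, 68 had a mean of at least 0.5 FPKM, and none of the 68 passed the threshold with 7 libraries (limma). An unadjusted p under 0.05 was given by 17 of the 68, 9 higher and 8 lower in Mutant libraries, which is 25% against 17% of all genes (8.21% higher and 8.79% lower). Their median log2 difference was 0.04, against 0.01 over all genes. Without WT replicate 3, 4 of 68 passed against 5.15% of all genes, Bad (above) and Tradd higher and Atr and Mdm4 lower.

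Bok, a relative of Bax and Bak1 that also permeabilises membranes, had the largest positive difference of the listed genes with an unadjusted p under 0.05. It stood at 89.2, 125.9 and 107.6 FPKM in WT and at 145.3, 138.7, 139.4 and 159.8 FPKM in Mutant libraries. All Mutant values were above all WT values, as in 7.31% of tested genes, and the log2 difference was 0.45 (SE 0.11, adjusted p = 0.173, limma). Over the survival list, Bcl2 and Bcl2l1 included, 4 of 5 tested were higher in Mutant libraries with a list median of 0.05, and Bcl2l2, which encodes BCL-W, was the 1 with an unadjusted p under 0.05 (0.18, adjusted p = 0.255). Mcl1, a survival gene with a short-lived protein, was more abundant than either survival member, at 74.7 to 86.6 FPKM over the 7 libraries with a log2 difference of 0.05. Of 7 BH3-only genes tested, Bad and Bcl2l11 included, 3 were higher and 4 lower with a median of -0.02 (0.06 without WT replicate 3), and 3 (Bad, Pmaip1 and Bik) had an unadjusted p under 0.05. Bik was named after its values were seen, for groups that were apart and lower, as in 7.59% of tested genes. It stood at 4.52, 3.94 and 4.67 FPKM in WT and at 3.32, 3.15, 3.6 and 3.51 FPKM in Mutant libraries (-0.32, SE 0.09, adjusted p = 0.186, limma). Pmaip1, which encodes NOXA, stood at 11.6, 19.8 and 10.4 FPKM in WT and at 5.45, 3.90, 12.1 and 9.82 FPKM in Mutant libraries, a log2 difference of -0.86 (SE 0.37, adjusted p = 0.291) with overlapping groups.

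Downstream of the pores, 9 genes of the apoptosome and mitochondrial list, Casp9 and Aifm1 included, had a median log2 difference of 0.00, with 4 higher and 5 lower. Vdac1 was the 1 with an unadjusted p under 0.05, at 147.9, 145.6 and 167.4 FPKM in WT and 168.2, 176.7, 176.4 and 180.8 FPKM in Mutant libraries. Its groups were apart, as in 7.31% of tested genes (0.19, SE 0.07, adjusted p = 0.225, and 0.0586 without WT replicate 3, limma). Apaf1, the scaffold that activates caspase 9, stood between 18.0 and 20.5 FPKM in all 7 libraries, and the difference for Cycs, which encodes cytochrome c, was 0.00 (interval -0.22 to 0.22). Over all 13988 tested genes, 7294 were higher in Mutant libraries. The other caspases were higher in Mutant libraries in 7 of 7 tested, with a median of 0.12 and 1 unadjusted p under 0.05. That gene was Casp6, an effector caspase, at 23.0, 32.6 and 29.2 FPKM in WT and 37.8, 34.8, 33.1 and 37.4 FPKM in Mutant libraries (log2 difference 0.35, SE 0.11, adjusted p = 0.210, limma). Of 5 inhibitors of apoptosis tested, 3 were higher and 2 lower, none with an unadjusted p under 0.05 and with a median of 0.04. In the death receptor list 8 of 10 were higher, with a median of 0.14. An unadjusted p under 0.05 was given by 2, Tradd and Tnfrsf1a. All Mutant values were above all WT values in 2, Tradd and Ripk1, against 7.31% of all genes. Tradd, an adaptor of the TNF receptor, was at 9.95, 8.96 and 11.0 FPKM in WT and 11.9, 14.6, 12.5 and 13.5 FPKM in Mutant libraries (0.38, SE 0.10, adjusted p = 0.173, and 0.0482 without WT replicate 3).

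Most regulators of p53 had lower means in Mutant libraries. Of 9 tested, Trp53 included, 8 were lower in Mutant libraries with a median log2 difference of -0.22, and in 5 (Mdm2, Mdm4, Atr, Trp53bp1 and Usp7) all Mutant values were below all WT values, against 7.59% of all genes. Those 5 also had unadjusted p values under 0.05, and none passed after adjustment with 7 libraries (limma). Mdm2, the ubiquitin ligase that marks p53 for degradation, stood at 21.3, 16.3 and 15.5 FPKM in WT and at 13.9, 13.7, 15.3 and 12.2 FPKM in Mutant libraries (-0.34, SE 0.12, adjusted p = 0.225). Atr, a kinase that signals replication stress to p53, stood at 48.8, 47.1 and 34.2 FPKM in WT and at 33.0, 34.0, 33.1 and 32.0 FPKM in Mutant libraries. WT replicate 3 lay next to the Mutant values of Atr, and the log2 difference was -0.37 (SE 0.12, adjusted p = 0.202) with it and -0.53 (adjusted p = 0.00681) without it. Mdm4, an inhibitor of p53 named here after its values were seen, stood at 37.1, 34.0 and 30.7 FPKM in WT and at 26.0, 28.7, 26.5 and 26.3 FPKM in Mutant libraries (-0.33, adjusted p = 0.168, and -0.40 with 0.0268 without WT replicate 3).

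Targets of p53, Bax included, were split, with 10 of 20 tested higher and 10 lower and a median log2 difference of -0.03 (0.01 without WT replicate 3). An unadjusted p under 0.05 was given by 2 higher (Phlda3, Sesn1) and 3 lower (Mdm2, Pmaip1, Gtse1), 25% against 17% of all genes. The groups were apart for Mdm2 (lower, as in 7.59% of all genes) and for Sesn1 (higher, as in 7.31%). Sesn1 stood at 34.5 to 37.4 FPKM in WT and 37.9 to 40.7 FPKM in Mutant libraries (0.15, SE 0.06, adjusted p = 0.247, limma). Phlda3, which restrains AKT signalling, was at 30.0, 35 and 41.0 FPKM in WT and 37.3, 47.4, 44.2 and 49.8 FPKM in Mutant libraries (0.34, SE 0.13, adjusted p = 0.244, limma). Gtse1, a microtubule-binding protein of the G2 phase, was at 7.66, 6.36 and 9.01 FPKM in WT and 5.10, 4.32, 6.90 and 6.52 FPKM in Mutant libraries (-0.41, SE 0.17, adjusted p = 0.283). In both of these genes the groups overlapped. Without WT replicate 3 those of Phlda3 were apart (0.45, adjusted p = 0.0784, limma), where 15.6% of all genes were apart and higher. Cdkn1a, which encodes the cell cycle inhibitor p21, was low throughout at 0.497 to 1.10 FPKM (-0.16, adjusted p = 0.664), and Bbc3, which encodes PUMA, stood at 1.28 to 2.48 FPKM (0.26, adjusted p = 0.512). The plot of pathway genes by list shows the spread within each list.

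**Figure D5:**
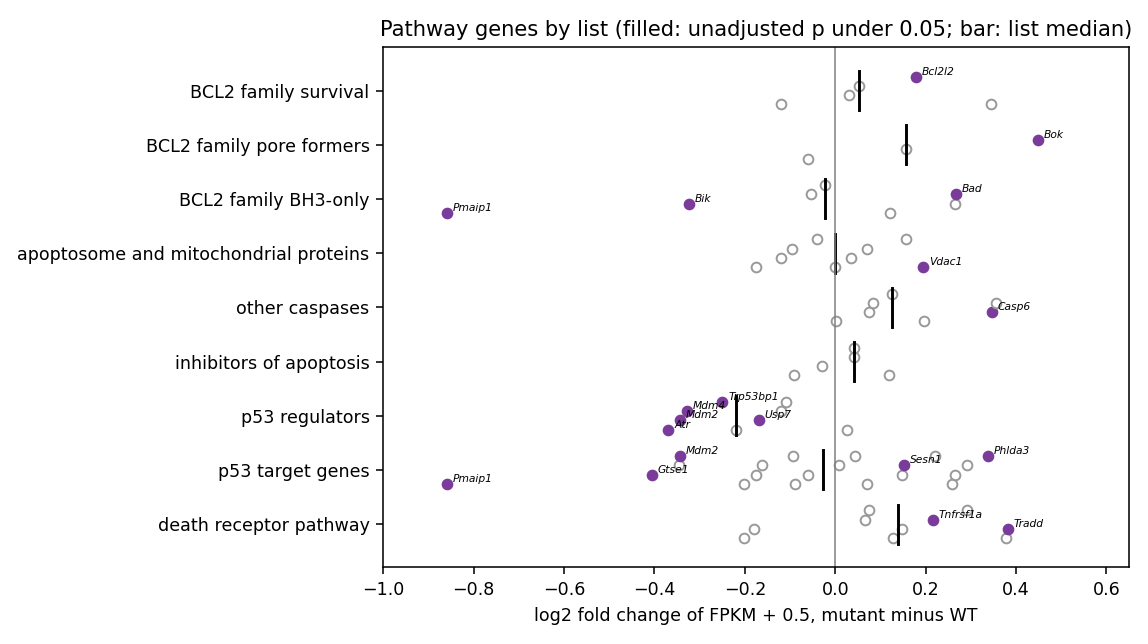
Log2 difference of Mutant minus WT on the log2(FPKM + 0.5) scale (horizontal axis) for the tested genes of each pathway list (rows). Each point is a gene and each vertical tick a list median, and labelled points have an unadjusted p under 0.05. The medians of all lists lie between -0.22 (p53 regulators) and 0.16 (pore formers).

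Likeness of pattern was measured as the root mean square difference between gene-centred log2 values over the 7 libraries, among the listed genes. The nearest gene to Bax was Trp53inp1 (0.10), to Bak1 Htra2 (0.07), to Bcl2 Xiap (0.10) and to Bcl2l1 Casp2 (0.10). The closest match of all was Bcl2l11 with Birc5 (0.06). Trp53 was nearest to Bik (0.16), and Casp9 had no close partner, with Diablo at 0.28. For Aifm1 the nearest gene, Bid, was at 0.09, which is more than the 0.08 by which Aifm1 itself departed from its own mean. These values are descriptions over 7 libraries that the genes share.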

How the data were processed

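Whole-testis RNA-Seq of 3 WT and 4 Mutant libraries was used. Per the study's methods, unstranded libraries were mapped to mm10 with TopHat2 2.0.12. The authors deposited FPKM per RefSeq gene (Cuffnorm; Cuffdiff 2.1.1 in the submitters' processing notes) and, in a second table, counts of uniquely mapped reads per LINE, SINE or LTR copy (HTSeq). Sums of FPKM were 694243 to 1018678 per library, and repeat read counts totalled 3454317 to 4670830. The fragments behind each FPKM are not known, so no counting interval was given. The header of each deposited table joins the names of 2 neighbouring columns, and columns were read by position after splitting that name, with 0 columns of values left out.

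FPKM was tested with limma 3.58.1 (trend) on log2(FPKM + 0.5) where the mean over libraries reached 0.5 FPKM, a scale that understates changes of low genes, adjusting p values over all tested genes (Benjamini-Hochberg, 0.05). Intronic counts (GENCODE M21, mean of at least 10 reads) were tested with edgeR 4.0.16 (quasi-likelihood, TMM), with DESeq2 1.42.0 as an alternative. All tests were two-sided, and the limma and edgeR fits were checked on simulated data. Positions are those of the deposited FPKM table. Settings varied were the pseudocount, filters, scaling, trend, a replicate block and leaving out each library.

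The 9 members, the 9 other pathway lists and the 10 marker lists were chosen with earlier results of these data known. Named genes were the members, their nearest listed genes, and up to 4 listed genes in each direction by size with an unadjusted p under 0.05. The gene nearest to Bad is not reported here. Other listed genes were added after their values were seen, for their roles in the pathway, a low unadjusted p or separate groups. The samples are labelled as biological replicates, 1 pair of testes each.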

Additional observations from a re-analysis of the deposited data

How the results depend on the processing

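The number of members called on FPKM was 0 under all settings that kept 7 libraries and 0 to 1 when a library was left out (1 without WT replicate 3). Pathway genes called numbered 0, and 0 to 4 with a library left out, and those with an unadjusted p under 0.05 numbered 17, and 7 to 20 with a library left out (7 without WT replicate 1, 10, 11 and 11 without Mutant replicates 1, 2 and 4). Members with an unadjusted p under 0.05 numbered 1, and 0 to 2 with a library left out (0 without WT replicate 1 and without Mutant replicates 1, 3 and 4), 0 with median centring, without the trend and with the replicate block. Fold changes near 0 changed sign when a library was left out, with log2 ranges for FPKM of -0.219 to 0.0196 (Bax), -0.11 to 0.15 (Bcl2), -0.119 to 0.0562 (Bcl2l11) and -0.41 to 0.12 (Casp9), and -0.11 to 0.17 for the Bax to Bcl2l1 ratio. For intronic reads the ranges were -0.0533 to 0.119 (Bcl2), -0.12 to 0.10 (Bcl2l1), -0.16 to 0.10 (Bcl2l11), -0.0683 to 0.20 (Casp9) and -0.21 to 0.18 (Trp53). Intronic signs also turned with no filter on reads (Bcl2 -0.0065, Bcl2l1 -0.0327, Trp53 -0.0277), with exonic copies included (Bcl2 -0.0052, Bcl2l1 -0.0652, Casp9 -0.0875, Trp53 -0.0199) and with library size scaling (Bcl2l1 -0.0055). The cause of these changes was not tested, and no intronic value was called under any of them. The median log2 difference of all tested genes stayed between -0.01 and 0.02 over all FPKM settings, leaving out a library included.

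Deviations of same-numbered libraries correlated at 0.20, -0.18 and 0.23, and those of other-numbered libraries between -0.30 and 0.17 (Pearson's r over genes). These values do not settle whether replicate numbers pair the libraries. With the replicate block, 0 members and 0 pathway genes were called, 12 pathway genes had an unadjusted p under 0.05, and intronic Bcl2l1 (-0.0555) and Trp53 (-0.215) turned sign. Under the block the Bax to Bcl2 ratio differed by -0.07 and the Bax to Bcl2l1 ratio by 0.05. Intronic values of Bax, Bad, Casp9 and Trp53 rest on few reads per library, and the depth behind each FPKM is not known. With 1 library left out the exact permutation tests of the ratios allow no p under 0.0667 (a WT library) or 0.1 (a Mutant library), so their p values say nothing of stability.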

Other observations

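Of the 79 listed pathway genes, 11 had a mean under 0.5 FPKM and were not tested. They included 3 genes of death receptor ligands (Fasl, Tnf and Tnfsf10), the p53 relatives Trp63 and Trp73, the BH3-only gene Hrk and the survival genes Bcl2l10, Bcl2a1a and Bcl2a1d. The other two were Casp4 and Naip1.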
